A study of Drosophila melanogaster with 6 samples.

Results

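Messenger RNA of the proteasome subunit genes was measured in whole lymph glands of Drosophila melanogaster. The proteasome is the protein-degrading machine of the cell, and the lymph gland is the blood-forming organ of the larva. A gene was taken when its symbol begins with Prosalpha or Prosbeta, or with Rpn or Rpt and a digit. That rule found 48 of the 17807 genes listed. Of these, 32 are called the widely expressed subunit genes here, a name given by symbol alone, as breadth of expression was not measured. They are 7 alpha and 7 beta subunits of the core particle, and 6 ATPases, 4 other base subunits and 8 lid subunits of the regulatory particle. The other 16 are paralogs of those subunits, with a T or an R after the subunit number in their symbols.

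Glands from wild-type larvae in the third instar were sequenced as 6 libraries of polyadenylated RNA. The labels give the same background for all of them, BL-30140 crossed to w1118, and name no treatment and no other genotype. One experimenter made 3 libraries, called set A here, and another made 3, called set B. Whether a library pools several larvae is not given in the sources used here, so the spread between libraries may be partly technical. Total expected counts ran from 18689689 to 26003822 per library, and depth did not differ between the sets beyond the spread of the libraries (two-sided exact permutation test, p = 0.5, where 3 libraries against 3 cannot go below 0.1).

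The core particle is a barrel of stacked rings. The alpha subunits form its outer rings and gate the entrance, and the beta subunits form the inner rings that carry the proteolytic sites. The regulatory particle caps the barrel: its base holds a ring of ATPases that unfold substrates, and its lid holds the enzyme that removes ubiquitin chains. In Drosophila, paralogs of several subunits are known from the male germ line.

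All 13 lymph gland and hemocyte markers examined, such as Hml and srp, were at 1 TPM or more in every library, and their summed level ran from 20453 to 30103 TPM. TPM is a relative level per transcript length, scaled to the same total in each library. Markers of neighbouring tissues differed between libraries. Summed ring gland markers (spok, dib and sad, the 3 of 5 matched, none at 0) ran from 523 to 1847 TPM in set A and from 875 to 1796 TPM in set B. The 6 salivary gland markers summed to 5508 TPM in set B replicate 2 and to between 14.3 and 78.6 TPM elsewhere. The 6 fat body markers summed to 721 TPM in set A replicate 3 and to at most 22.5 TPM elsewhere. The 5 muscle markers summed to 1470 TPM in set B replicate 3 and to between 256.5 and 633 TPM elsewhere, and the 5 neural and glial markers to 24.8 TPM in set B replicate 1 and to at most 4.62 TPM elsewhere. In bulk RNA of this kind, fewer cells of a type and less RNA per cell cannot be told apart.

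All 32 widely expressed subunit genes were detected in every library at 1 TPM or more, together with 2 paralogs, Prosalpha1R and Rpt6R, which makes 34 of the 48. The 48 genes together took from 0.450% to 0.595% of all counts. Their summed level was 6206 TPM in set A replicate 1, 4658 in set A replicate 2 and 4878 in set A replicate 3, and 5013, 5775 and 5228 TPM in set B replicates 1, 2 and 3. The highest sums were therefore those of set A replicate 1 and set B replicate 2, and the ranges of the sets overlapped. Among the 32 widely expressed genes the median level was 148.6 ± 16.6 TPM (mean ± SD of the library medians, n = 6).

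The alpha subunits stood high, with 1 exception. Their median was 193.6 ± 15.1 TPM (mean ± SD over libraries, n = 6). Prosalpha2 was the highest of them, at 261, 209.6 and 211 TPM in set A and 218, 254 and 219 TPM in set B (replicates 1 to 3 in each; 229.0 ± 22.7 TPM). Set A replicate 1 and set B replicate 2 were its high libraries, and the other 4 lay close together. Prosalpha6 (228.6 ± 27.7 TPM), Prosalpha7 (203.7 ± 20.9), Prosalpha3 (193.6 ± 15.1), Prosalpha4 (171.0 ± 17.0) and Prosalpha5 (166.7 ± 14.0) followed. Prosalpha1 was the exception, at 38.8, 27.4 and 20.9 TPM in set A and 31.4, 28.1 and 17.0 TPM in set B (27.3 ± 7.70 TPM), and its counts are shared with a near-identical paralog described after the lid.

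Beta subunits were at similar levels, with a median of 201.8 ± 21.3 TPM. Prosbeta6, a structural subunit without a proteolytic site of its own (chromosome 3L, 16609400 to 16610418, minus strand, BDGP6.54 assembly), was the highest of all 32. It stood at 285, 236 and 246 TPM in set A and at 252, 283 and 259.7 TPM in set B (260.3 ± 20.0 TPM). Again set A replicate 1 and set B replicate 2 were highest, and the sets overlapped. The 3 proteolytic subunits lay close together: Prosbeta1, the caspase-like site, at 210.0 ± 18.5 TPM, Prosbeta5, the chymotrypsin-like site, at 205.5 ± 21.7 TPM, and Prosbeta2, the trypsin-like site, at 196.2 ± 27.1 TPM. The structural subunits Prosbeta7 (201.5 ± 19.4 TPM) and Prosbeta3 (191.0 ± 25.8) were in the same range. Prosbeta4, also structural, was the lowest beta subunit, at 221, 170.4 and 172 TPM in set A and 173, 209.4 and 192 TPM in set B (189.6 ± 21.5 TPM).

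**Figure D1:**
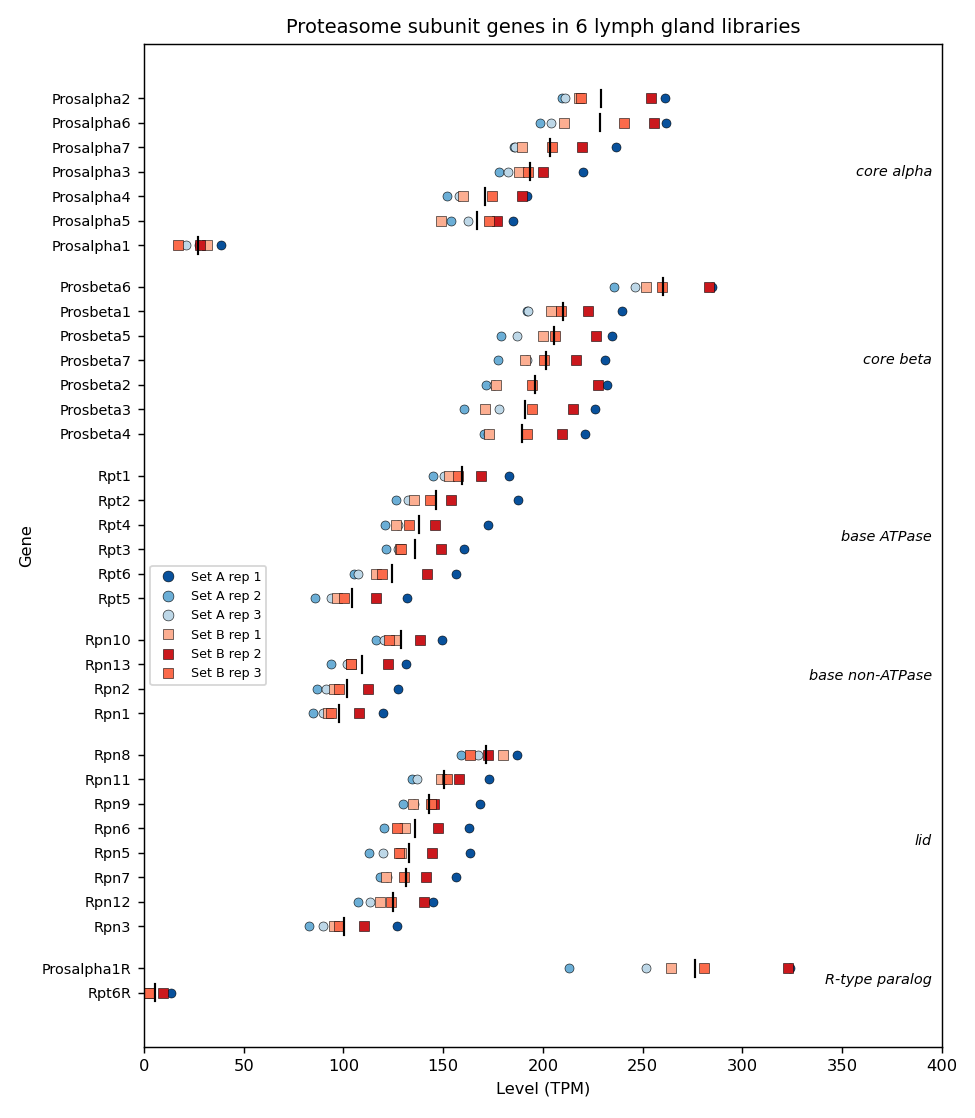
Level in TPM (x axis, linear) of the 32 widely expressed subunit genes and of the 2 paralogs at 1 TPM or more in every library (y axis, grouped by role). Each symbol is 1 library (circles set A, squares set B) and each vertical tick is the mean of 6; core genes lie to the right of most regulatory genes, Prosalpha1 (27.3 TPM) lies far to the left and Prosalpha1R (276 TPM) to the right.

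The 6 ATPases of the base, which form the unfolding ring, had a median of 136.8 ± 17.1 TPM. Rpt1 was the highest, at 183, 145 and 150.2 TPM in set A and 153, 169 and 157 TPM in set B (159.6 ± 14.1 TPM). Rpt5 was the lowest, at 132, 85.6 and 93.6 TPM in set A and 96.7, 116 and 100.4 TPM in set B (104.1 ± 17.0 TPM). For both genes set A replicate 1 was highest and set B replicate 2 next. Between them lay Rpt2 (146.5 ± 22.3 TPM), Rpt4 (137.6 ± 19.2), Rpt3 (135.9 ± 15.3) and Rpt6 (124.4 ± 20.4).

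The 4 other base subunits had the lowest class median, 105.6 ± 14.6 TPM. Rpn10, a receptor for ubiquitin chains, stood at 149, 116 and 120.4 TPM in set A and 126, 138 and 123 TPM in set B (128.9 ± 12.5 TPM). Rpn13, also a ubiquitin receptor, had 109.4 ± 14.2 TPM, and Rpn2, a scaffold of the base, had 101.7 ± 15.1 TPM. Rpn1, the base subunit that docks shuttle proteins (chromosome 3L, 19915051 to 19918160, plus strand), was the lowest of the widely expressed genes after Prosalpha1. Its level was 120, 84.6 and 89.9 TPM in set A and 92.2, 108 and 93.6 TPM in set B (98.0 ± 13.1 TPM).

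Lid subunits had a median of 135.2 ± 16.2 TPM. Rpn8, the partner of the deubiquitinating enzyme in the lid, was the highest, at 187, 159 and 168 TPM in set A and 180, 172 and 164 TPM in set B (171.6 ± 10.4 TPM). Here set B replicate 1 was second after set A replicate 1. Rpn11, the deubiquitinating enzyme itself, followed at 150.4 ± 14.2 TPM. The scaffold subunits Rpn9 (142.9 ± 13.8 TPM), Rpn6 (136.1 ± 15.9), Rpn5 (132.9 ± 18.4), Rpn7 (131.5 ± 14.9) and Rpn12 (124.7 ± 15.1) came next. Rpn3, another scaffold subunit, was the lowest, at 127, 82.5 and 89.5 TPM in set A and 95.4, 111 and 97.9 TPM in set B (100.5 ± 16.0 TPM).

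Core genes were higher than regulatory genes. The median over the 18 regulatory genes was 132.3 ± 15.6 TPM and that over the 14 core genes 199.7 ± 20.9 TPM (n = 6 libraries). The ratio of regulatory to core median was 0.662 ± 0.0137 and ran from 0.645 to 0.685, so it moved less between libraries than the levels did. Rpn8 was the only regulatory gene whose mean reached into the core range once Prosalpha1 was set aside, and the other 17 of the 18 had means below those of all 13 remaining core genes. In every single library, 15 of the 18 were below all 13. Without Prosalpha1 the highest of the 32 genes was 2.66-fold above the lowest. Core transcripts are also shorter (779 to 1176 nucleotides, median 971) than regulatory ones (995 to 3351, median 1462). Rpn12, at 995 nucleotides, was the only regulatory gene within the lengths of core transcripts, and it was below every core gene except Prosalpha1. Length and particle can therefore hardly be told apart, and the part of length in the TPM difference was not tested.

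The order of neighbouring genes was mostly not resolved. The 33 genes at 5 TPM or more in every library form 32 neighbouring pairs by mean level. In 5 of these pairs the higher gene was higher in all 6 libraries, and in the other 27 at least 1 library reversed the order.

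Prosalpha1 and Prosalpha1R are a near-identical pair on chromosome 2R, at 7827303 to 7828678 and 7830413 to 7831771 on the minus strand (BDGP6.54 assembly). Prosalpha1R was at 324, 213 and 252 TPM in set A and 264, 323 and 281 TPM in set B (276 ± 43.0 TPM, n = 6), above every other subunit gene by its mean. The split between the 2 genes rests on how reads that match both were assigned, so each gene alone is uncertain. RSEM's posterior SD of the count, which measures that ambiguity, reached 37.9% of the count for Prosalpha1 and 3.84% for Prosalpha1R, and Prosalpha1 was the only subunit gene where it was over 5% of the count in any library. Summed, the pair stood at 363, 241 and 273 TPM in set A and 295, 351 and 298 TPM in set B (303 ± 46.5 TPM). Prosalpha1R took from 88.3% to 94.2% of the counts of the pair (90.8 ± 2.27%, n = 6). The pair as a whole was above each of the other 6 alpha subunits in every library.

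**Figure D2:**
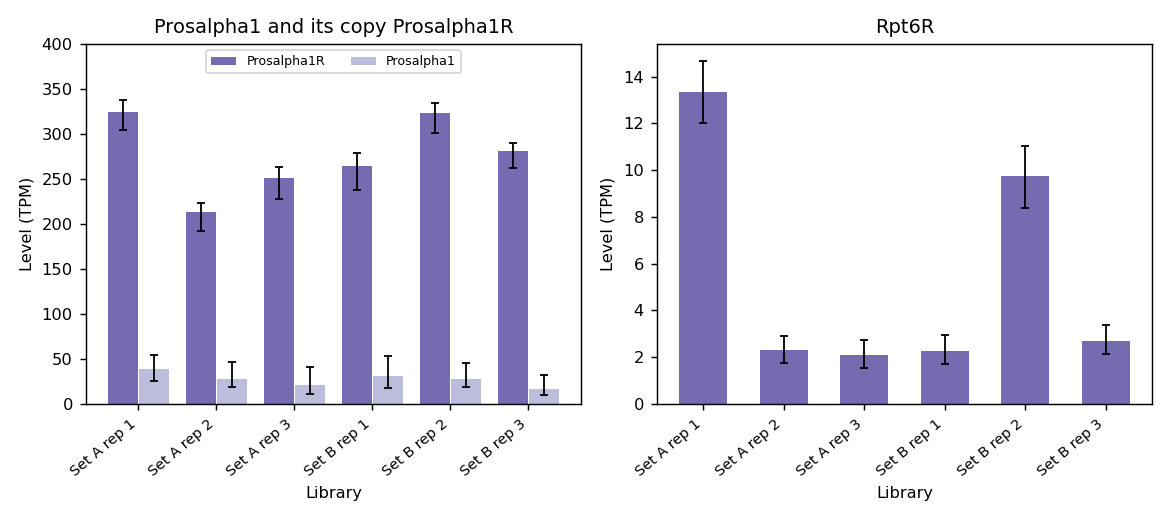
Left, level in TPM of Prosalpha1 and Prosalpha1R in each of the 6 libraries, with bars for the interval that RSEM gives with each value. Right, level of Rpt6R, with the same bars; set A replicate 1 (13.3 TPM) and set B replicate 2 (9.74 TPM) lie above the other 4 libraries, which hold 2.11 to 2.71 TPM.

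Rpt6R, a paralog of the ATPase Rpt6 (chromosome 3R, 30582198 to 30583697, minus strand), was the subunit gene that differed most between libraries among those at 1 TPM or more. It was at 13.3, 2.29 and 2.11 TPM in set A and at 2.28, 9.74 and 2.71 TPM in set B, from 387, 59, 46, 50, 203 and 76 counts in the same order. Set A replicate 1 and set B replicate 2 stood above the other 4 libraries, and these are also the libraries with the highest ring gland markers (1847 and 1796 TPM, against 523 to 1046 TPM elsewhere). The part of ring gland RNA in this difference was not tested. Rpt6R amounted to 8.52% and 6.87% of the level of Rpt6 in those 2 libraries and to between 1.96% and 2.28% in the other 4. RSEM's intervals for those 2 libraries, from 12.0 to 14.7 TPM and from 8.39 to 11.0 TPM, lay above the highest bound of the other 4, 3.36 TPM, although the level of these intervals is not given in the sources used here.

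Rpt3R, a paralog of the ATPase Rpt3, had 8 to 20 counts per library and 0.28 to 0.92 TPM, lowest in set A replicate 1. Its locus overlaps the gene Alg12 on the opposite strand, and whether counting used strand is not given in the sources used here. The other 13 paralogs were not detectable at this depth or rested on 1 count. Of them, 12 had no count in any library: Prosalpha3T, Prosalpha4T1, Prosalpha4T2, Prosalpha6T, Prosbeta2R1, Prosbeta4R1, Prosbeta4R2, Prosbeta5R1, Prosbeta5R2, Rpn12R, Rpn13R and Rpt4R. Prosbeta2R2 had 1 count, in set B replicate 1. A count of 0 allows up to 3 counts, which is 0.103 to 0.278 TPM per gene and library and covers counting error only. Markers of testis and germ line, where Drosophila expresses several of these paralogs, summed to between 1.86 and 2.44 TPM over the 13 of 14 matched. None of the 13 reached 1 TPM in all libraries, and aly, comr, sa and dj were at 0 in all 6. The 16 paralogs made up 5.31 ± 0.376% of the summed level of the 48 genes (n = 6), and 0.108% once Prosalpha1 and Prosalpha1R were counted as 1 gene.

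The widely expressed subunit genes shared their order of libraries. All 32 were highest in set A replicate 1, where 25.2% of the 8491 genes tested and 38.0% of 594 other genes of like mean level (98 to 260 TPM) had their highest level. For 30 of the 32, set A replicate 1 and set B replicate 2 were the 2 highest libraries, against 24.4% of all genes tested and 34.7% of the other genes of like level. The exceptions were Rpn8 and Prosalpha1. Those 2 libraries were the lowest pair for none of the 32, and for 20.4% of genes tested. Set A replicate 2 was the lowest library for 30 of the 32, for 25.3% of genes tested and for 33.2% of the other genes of like level.

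**Figure D3:**
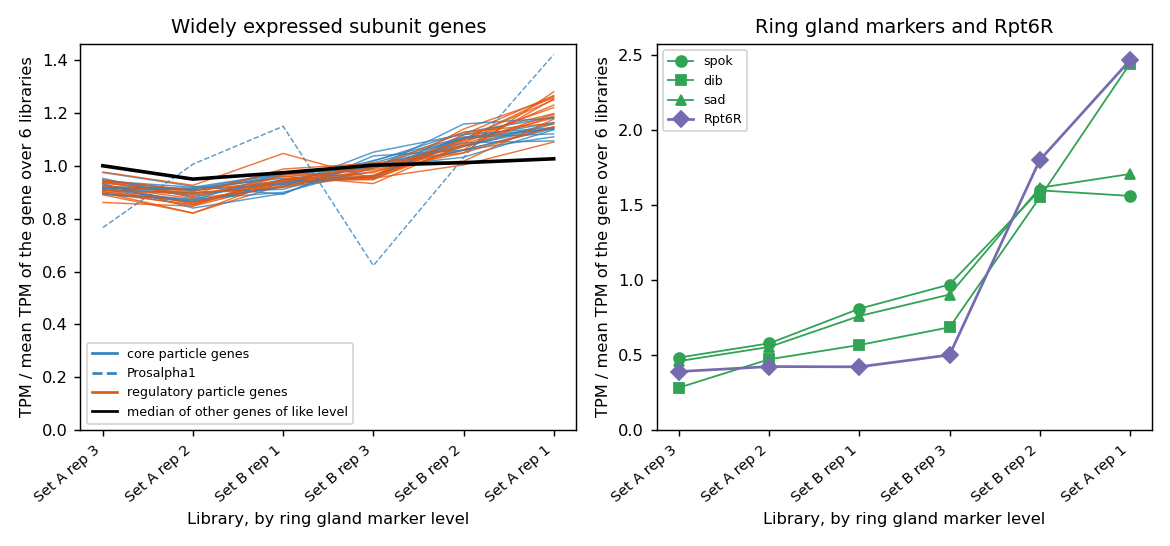
Left, level of each widely expressed subunit gene in each library divided by that gene's mean over the 6 libraries (linear axis; 1 is the mean), with libraries ordered by summed ring gland markers; right, the same for the ring gland markers spok, dib and sad and for Rpt6R. The medians over these genes run from 0.886 in set A replicate 2 to 1.17 in set A replicate 1, and those of other genes of like level from 0.950 to 1.03.

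In units of each gene's own mean over libraries, the median of the 32 genes was 1.17, 0.886 and 0.920 in set A and 0.945, 1.09 and 0.988 in set B. For the other genes of like level the medians were closer together, from 0.950 in set A replicate 2 to 1.03 in set A replicate 1. Within set A the subunit genes were thus higher in replicate 1 than in both others, and within set B higher in replicate 2. Summed ring gland markers were 1847, 632 and 523 TPM in set A and 875, 1796 and 1046 TPM in set B, so the same libraries led. Summed lymph gland and hemocyte markers were lowest in those libraries (20453 and 20477 TPM, against 23958 to 30103 TPM elsewhere), and PPO1 and PPO2, genes of crystal cells (a class of hemocytes), made up 9597 and 9624 TPM of these sums, against 12498 to 17223 TPM elsewhere. The other 11 markers summed to 10857 and 10854 TPM in those libraries, within the 10355 to 12880 TPM of the other 4. Of the 13 markers, 5 had those libraries as their lowest pair (PPO1, PPO2, Hml, Pxn and Col4a1), whereas eater had them as its highest pair and srp, NimC1 and eater were highest in set A replicate 1. The part of tissue composition in the level of the subunit genes was not tested.

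The median coefficient of variation of the widely expressed genes over the 6 libraries was 11.3%, and 8.88% for other genes of like level. Leaving out set A replicate 1 and set B replicate 2, a setting chosen after seeing the data, brought the median of the widely expressed genes to 5.19%. These were the high libraries of the same genes, so a lower value was built into that choice. Over all 6 libraries and apart from Prosalpha1, the coefficient ran from 6.09% for Rpn8 to 16.4% for Rpt6. Dividing each gene by the median of the other subunit genes in the same library lowered the median to 3.90%, with Rpn7 the steadiest at 1.94% and Rpn8 the least steady of these 31 at 7.30%. The same division raised the median of the other genes of like level to 12.2%. The divisor carries the subunit genes' shared order of libraries, so this contrast restates that order and is not a separate test. No single library stood apart by Dixon's criterion in any of 38 values of the subunit genes (the level of 35 genes, the ratio of regulatory to core median, the paralog share and the sum of the Prosalpha1 pair), of which chance would pick about 1.9. The criterion looks for 1 extreme library, so it does not pick out 2 that are high together, as for Rpt6R.

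No subunit gene passed the test between the sets. The question was whether libraries made by 2 experimenters from the same genotype, tissue and stage differ. Of the 48 genes, 35 had enough counts to be tested: the 32, Prosalpha1R, Rpt3R and Rpt6R. By edgeR's quasi-likelihood test with Benjamini-Hochberg adjustment over all 8491 genes, 0 of 35 passed an adjusted p of 0.05, as did 0.0% of all genes. At an unadjusted p under 0.05, 0 of 35 passed, against 4.16% of all genes. DESeq2 called 0 of 35 as well, against 0.259% of all genes. The TPM of the 2 sets overlapped for all 35, whereas 6.11% of genes tested had sets that did not overlap.

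**Figure D4:**
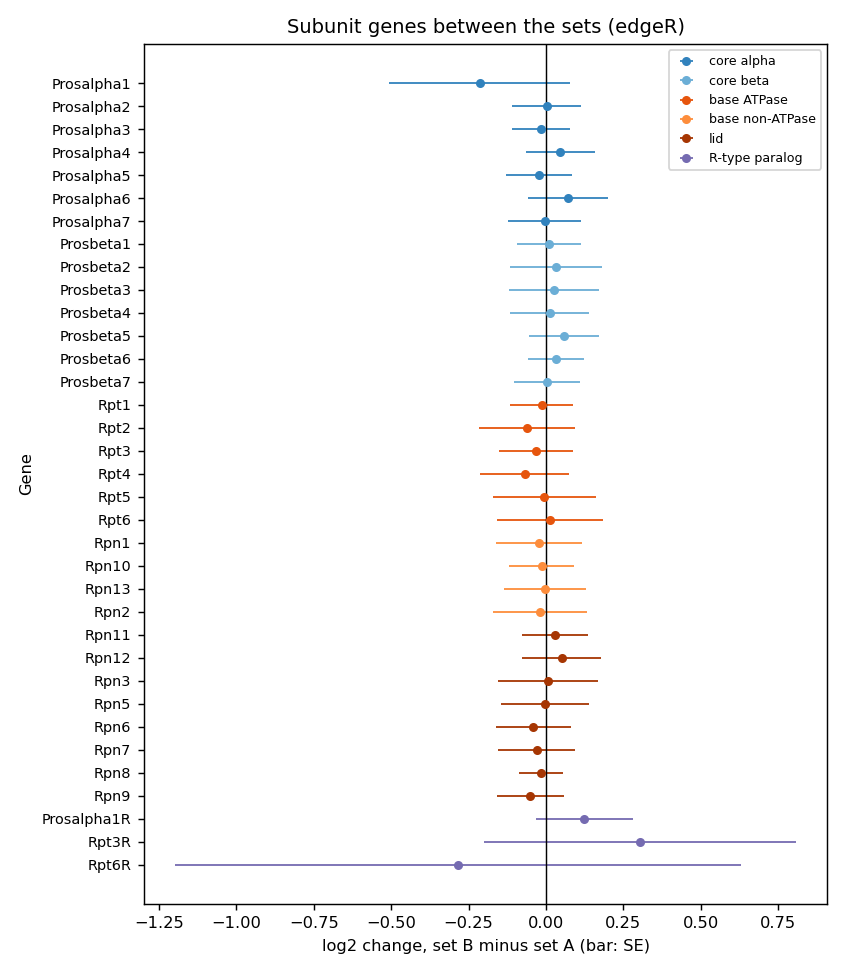
Log2 difference of set B minus set A with its standard error (x axis, bars 1 SE to either side) for the 35 subunit genes tested. Values for 31 genes lie between -0.07 and 0.07; Prosalpha1, Prosalpha1R, Rpt3R and Rpt6R lie farther out, with wider errors.

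The median log2 difference, set B minus set A, was -0.0033 over the 32 widely expressed genes and -0.0045 over all genes tested. The 31 of them without Prosalpha1 lay between -0.07 for Rpt4 and 0.07 for Prosalpha6. Prosalpha1R had a log2 difference of 0.12 (SE 0.157) and Prosalpha1 one of -0.21 (SE 0.294), each with an adjusted p of 0.9997 by edgeR's quasi-likelihood test. The value of Prosalpha1 was 0.0249 without set A replicate 1. Rpt6R had -0.28 (SE 0.913) at the same adjusted p, and its direction rested on single libraries: without set A replicate 1 the value was 1.11, and without set B replicate 2 it was -1.24. Without set A replicate 1 the median of the widely expressed subunit genes became 0.11 and that of all genes 0.0042. In that setting 0 of the 35 subunit genes tested passed.

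Partners of the proteasome were taken as a list of 23 genes, of which 22 were matched and all 22 were at 1 TPM or more in every library. None of the 22 passed the test between sets by edgeR's quasi-likelihood test, at an adjusted or an unadjusted p of 0.05 (0.0% and 4.16% of all genes). Sem1, the small lid subunit whose symbol lies outside the rule, had 349 ± 27.7 TPM (n = 6), above every one of the 48. For 10 of the 22 (45.5%), set A replicate 1 and set B replicate 2 were the 2 highest libraries. The share was 24.4% of all genes tested and 34.7% of the other genes at the mean level of the subunit genes. These were Sem1, Pomp (the chaperone that assembles the core), PI31 (a proteasome-binding regulator), Usp14 (a proteasome-bound deubiquitinase), the shuttle proteins Rad23 and rngo, the polyubiquitin gene Ubi-p5E, the segregase TER94 with its cofactor Ufd1, and cnc, a transcription factor whose mammalian relatives drive proteasome genes. The other transcription factor listed, maf-S, was lowest in set A replicate 1 (80.2 TPM) and highest in set B replicate 2 (94.1 TPM).

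**Figure D5:**
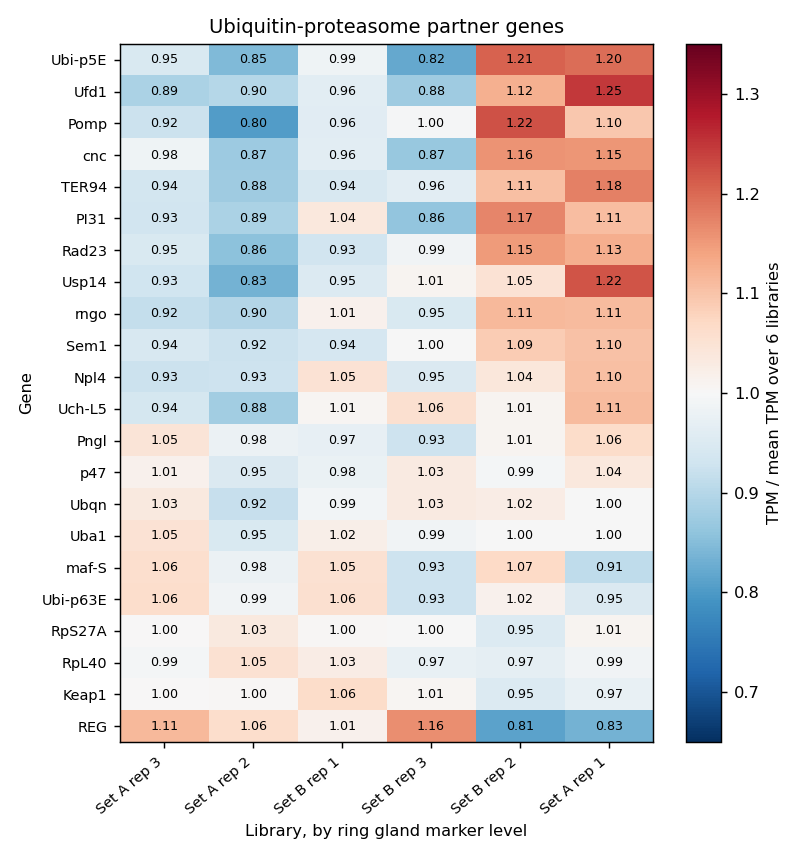
Level of the 22 proteasome partner genes in each library divided by the gene's own mean over the 6 libraries (linear colour scale), with libraries ordered by summed ring gland markers. Pomp reaches 1.22 and Usp14 1.22 in their highest libraries, set B replicate 2 and set A replicate 1, where REG is at 0.812 and 0.834.

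The opposite order was seen in 2 of the 22 partners (9.09%), REG and Keap1, a smaller share than the 20.4% of all genes tested. Their lowest libraries were set A replicate 1 and set B replicate 2. Keap1 moved little, at 4.46, 4.60 and 4.59 TPM in set A and 4.88, 4.36 and 4.61 TPM in set B. REG, the alternative activator cap that binds the core in place of the regulatory particle, was at 177, 225 and 236 TPM in set A and at 215, 172 and 247 TPM in set B. Those 2 libraries were below all 4 others for REG, and highest for 30 of the 32 subunit genes. Ubiquitin genes fused to ribosomal proteins (RpL40, RpS27A), the polyubiquitin gene Ubi-p63E and the ubiquitin-activating enzyme Uba1 were in neither of these groups, and in every library they lay between 0.929 and 1.06 times their own means.

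The subunit genes are scattered over the genome. Of the 32, 10 are on chromosome arm 2R, 9 on 3R, 5 on 3L, 4 on 2L and 4 on X. A neighbouring protein-coding gene on the opposite strand starts within 500 nucleotides of the start, pointing away, for 18 of the 32 (56.3%). The share is 39.5% of the 7124 protein-coding genes at 1 TPM or more in every library. For the paralogs, most of them not detected, it is 2 of 16 (12.5%), beside 25.0% of all protein-coding genes. The closest were Rpt5 with RanBP3 (42 nucleotides), Rpt4 with mldr (58), Rpt2 with CG13599 (81) and Prosalpha4 with kat80 (90). Another gene overlaps on the opposite strand at 15 of the 32 loci (46.9%, against 47.3% of those protein-coding genes), among them Rpt2, Rpt4, Rpt5, Rpt6, Rpn8 and Prosbeta5, and reads of the 2 partners cannot be told apart if strand was not used. Paralogs without an intron in the longest transcript numbered 6 of 16, or 37.5% (Prosalpha3T, Prosalpha4T1, Prosalpha6T, Prosbeta5R2, Rpn12R and Rpn13R). Widely expressed genes without one numbered 4 of 32, or 12.5% (Rpt1, Rpn7, Rpn12 and Prosbeta3). The share was 16.4% of all protein-coding genes and 9.19% of those at 1 TPM or more in every library.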

How the data were processed

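Whole lymph glands were measured in 6 libraries of polyadenylated RNA made with a stranded kit. The authors deposited RSEM tables per gene: expected counts (not normalized), TPM values (per length, with the same total in each library) and FPKM values, per the file headers. The submitters' processing notes name CASAVA 1.8.2, Trimmomatic 0.35, STAR 2.7.1a, RSEM 1.2.28 and the build BDGP6. Positions are from Ensembl release 115 (BDGP6.54). A gene symbol was matched to 17710 of 17807 gene IDs. Whether counting used strand is not given in the sources used here.

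Levels are TPM, as mean ± SD over 6 libraries. Expected counts were rounded, filtered by filterByExpr, scaled by TMM and tested with edgeR 4.0.16 (R 4.3.3; quasi-likelihood, Benjamini-Hochberg), and with DESeq2 1.42.0 as an alternative. The edgeR step was tested on simulated data, with changed genes drawn from all genes tested. It called 53 of 100 genes changed 2-fold, 87 of 100 changed 4-fold, and 7 unchanged genes. FPKM served as an alternative scale. The deposited posterior SD and interval bounds are the authors' values. Other alternatives were size factors, no filter, other detection minimums, the replicate block and leaving out each library. Same-numbered libraries had correlations of -0.178, -0.302 and 0.375 in their deviations from the set means, so the main test used no pairing. Set A replicate 1 with set B replicate 2 had 0.566. A weaker pairing by number could be hidden behind such a difference and is not excluded.

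Values in every library are given for the highest and lowest gene of each class, each paralog at 1 TPM or more in any library, any gene called between sets or with a library standing apart, and the gene of smallest unadjusted p in each direction. The members and the lists of markers and partners were chosen with earlier results of these data known. Protein and promoter sequences were not used here.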

Additional observations from a re-analysis of the deposited data

Results flagged for a closer look

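In 4 of the 7 marker lists, 1 library stood apart from the other 5, by a gap to its nearest neighbour that passes Dixon's criterion as a share of the whole range, where chance would pick about 0.35 of 7. Salivary gland markers summed to 5508 TPM in set B replicate 2, with a gap of 0.988 of the range. Fat body markers summed to 721 TPM in set A replicate 3, with a gap of 0.978. Neural and glial markers summed to 24.8 TPM in set B replicate 1, with a gap of 0.868. Muscle markers summed to 1470 TPM in set B replicate 3, with a gap of 0.689. Of these, set B replicate 2 was also among the 2 libraries highest for 30 of the 32 widely expressed subunit genes, and the part of salivary gland RNA in those levels was not tested. Set A replicate 1, the highest for all 32, had 73.3 TPM of salivary gland markers. No library stood apart in the 22 partner genes.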

How the results depend on the processing

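No subunit gene passed the test between the sets under any setting run: 0 of 35 by edgeR, with DESeq2 size factors, by DESeq2 and without each library, and 0 of 36 without the expression filter. With the replicate number as a block 0 passed too, although the numbers were not shown to pair the libraries. The count detected was 34, and 34 without each library. The ratio of regulatory to core median was 0.679 from means and 0.631 without genes overlapped on the opposite strand, and 0.657 to 0.665 without each library. The median coefficient of variation was 8.05% to 12.5% without each library and 5.19% without set A replicate 1 and set B replicate 2, a setting chosen after seeing the data. The paralog share was 0.108% with the Prosalpha1 pair summed, also chosen after seeing the data, and 5.21% to 5.44% without each library. The exact permutation p for depth was 0.2 to 1 without each library. For Prosalpha1 the log2 difference was -0.41 to 0.0249 without each library, above 0 without set A replicate 1. For Rpt6R it was -1.24 to 1.11 without each library, 0.0238 with the replicate block and 0.16 without both of those libraries; it was above 0 without set A replicate 1 (1.11) and set B replicate 1 (0.06). The cause of these changes was not tested.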

Other observations

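Protein-coding genes that start head to head with a subunit gene, within 500 nucleotides, had a library order of their own to compare. Of the 17 such neighbours at 1 TPM or more in every library, 4 had their highest level in set A replicate 1, against 32 of the 32 subunit genes and 25.2% of all genes tested. Set A replicate 1 was the highest library and set B replicate 2 the second for 3 of the 17 (17.6%). That order held for 30 of the 32 subunit genes and 16.0% of all genes tested. Of all 18 such neighbours, 14 had a mean level under 0.5 times that of the subunit gene, 3 lay within 2-fold of it and 1 was higher by more. Those within 2-fold were Npc1a with 199.2 TPM beside Prosalpha6 with 228.6 TPM, AP-2mu with 86.4 TPM beside Rpn7 with 131.5 TPM, and CG18853 with 15.7 TPM beside Prosalpha1 with 27.3 TPM. The higher one was CtsL1, with 601 TPM beside Rpn13 with 109.4 TPM. These counts were chosen after seeing the data, and their difference was not tested.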
